A study of Homo sapiens with 4 samples.

Results

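Radixin, ezrin and moesin are encoded by RDX, EZR and MSN. They were studied here with AHNAK, CALD1 and PLEC, 3 other genes for proteins that bind actin or lie under the plasma membrane. The sample titles name the target as circZNF609, the circular RNA of ZNF609, and its probes are called ZNF609 probes below. The question was where these probes captured RNA of the 6 genes, and whether the control probes captured it as well. The genes were chosen by the places of their peaks and the read numbers of these peaks in these same lists, and are given by name. They are 6 of 847 protein-coding genes that had a peak in any pull-down, which is 4.23% of the 20037 protein-coding genes in the annotation. A peak was counted for a gene when it overlapped the annotated gene span on GRCh38, with strand ignored, so RNA of the opposite strand cannot be told apart from that of the gene. The captured RNA came from RD, a line of embryonal rhabdomyosarcoma, a tumour with features of skeletal muscle, and no treatment or genotype differed between the samples. Biotinylated antisense probes against exon 2 of ZNF609 were used as an even and as an odd set, and the control was a set against LacZ, a bacterial mRNA that human cells lack. Each of the 3 pull-downs is 1 library from this 1 cell line, with no replicate, so nothing below carries a replicate check or a test between probe sets. A 4th sample, the total lysate, was not analysed here.

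The members span several roles at actin filaments and under the plasma membrane. Ezrin, radixin and moesin (the ERM proteins) bind membrane proteins with an N-terminal FERM domain and actin filaments with their C-terminal end, and they open from a folded state when phosphoinositides and phosphorylation release these ends. AHNAK is a very large scaffold protein that associates with annexin A2 and S100A10 under the plasma membrane. Caldesmon, the product of CALD1, binds actin and tropomyosin and restrains the actomyosin ATPase. Plectin, the product of PLEC, is a plakin that ties intermediate filaments to actin and to membrane junctions, and in muscle it connects desmin to the Z-disc.

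The even list held 502 peaks, the odd list 542 and the LacZ list 722, with 482418, 279415 and 219401 reads in peaks. Each peak was made of bins of 170 bases, and its value was the number of reads per bin. The values were not scaled to library size, so they rank peaks within a list, and values of different lists are set side by side without reading a difference in capture from them. ZNF609, the gene of the targeted circular RNA, had 1 even, 3 odd and 0 LacZ peaks. Of 10 myogenic marker genes, 3 had a peak, where 4.23% of all protein-coding genes had one. Both ZNF609 sets listed DES and TNNT1, and CDH15 had even and LacZ peaks, which shows captured RNA and not the level of expression. Sequences of the peaks and of the probes were not used here.

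The 6 genes held 26 peaks in all. Of the even peaks, 10 of 502 lay in these genes (1.99%, exact Clopper-Pearson 95% interval 0.959 to 3.63), of the odd peaks 12 of 542 (2.21%, 1.15 to 3.84) and of the LacZ peaks 4 of 722 (0.554%, 0.151 to 1.41). The intervals cover counting error alone and take peaks as independent, although several peaks lay in the same gene. Since the genes were also chosen for their peaks, these shares are a description. Even peaks lay in 5 of the 6 genes, odd peaks in 6 and LacZ peaks in 3, where 1.54%, 1.64% and 2.22% of protein-coding genes had a peak in those lists. RDX, AHNAK and CALD1 had peaks with both ZNF609 sets and none with LacZ probes, a class that holds 4.96% of the 847 genes. EZR and PLEC had peaks in all 3 lists, as did 5.31% of the 847 genes, and MSN had odd and LacZ peaks and no even peak, as did 6.97%. All 26 peaks lay wholly inside the member's span, and none overlapped another annotated gene. None touched the window from 250 bases before to 50 bases after an annotated start in the 5 genes with such a window, and the nearest was 11.8 kb from a start.

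**Figure D1:**
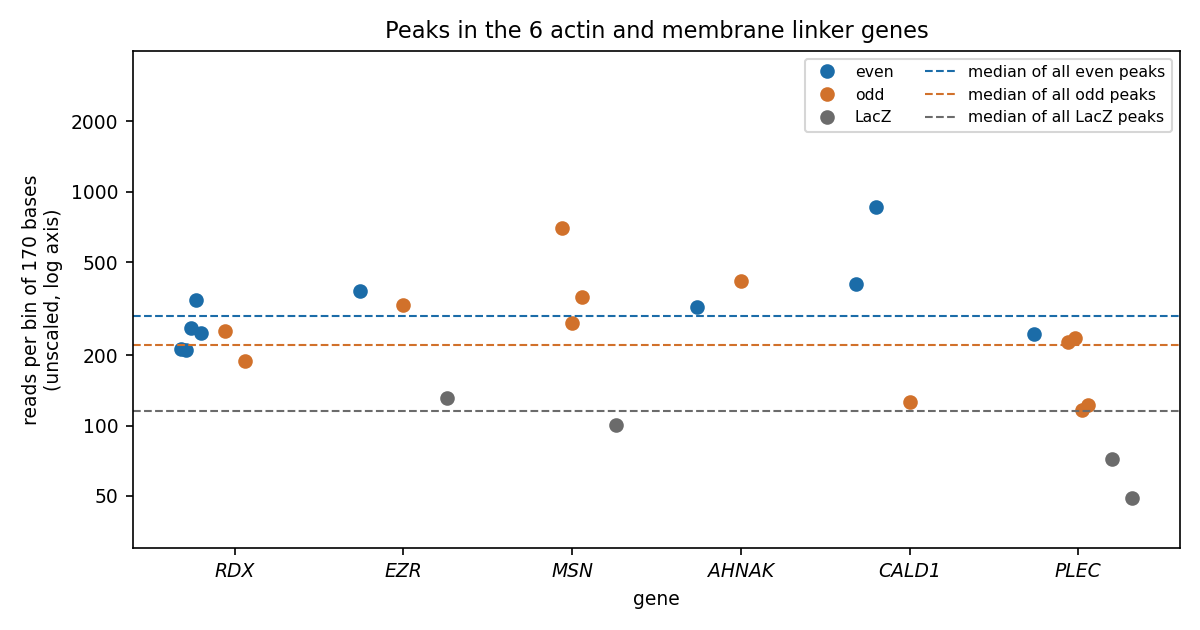
Reads per bin of each peak (unscaled, log axis) in the 6 genes, with 1 point per peak, coloured by list, and dashed lines at the median of all peaks of each list (293 even, 221.5 odd, 115 LacZ). RDX has 5 even and 2 odd points and no LacZ point, and the highest point of the 6 genes is the even CALD1 peak at 857.5.

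Radixin RNA was captured at more places with even probes than that of any other member, and no LacZ peak was listed in the gene. RDX (gene ID 5962) lies on the minus strand of chromosome 11, 110174922 to 110296614. The strongest place, 110247721 to 110247890, held 344 even reads and 254 odd reads in its single bin. The place nearest to the 5′ end, 110253841 to 110254180, held 249 even and 189.5 odd reads per bin. These are the places where even and odd RDX peaks covered the same bases, and they were 5950 bases apart. Regions of this kind, listed by both ZNF609 sets and not by LacZ, made up 3.49% of the 1549 regions of the 3 lists. Of the 847 genes, 12 held at least 2 such regions, and RDX was among the 11 of these with no LacZ peak anywhere in the gene.

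The other 3 RDX peaks were seen with even probes alone and lay farther along the transcript. They had 261 reads per bin at 110237351 to 110237690, 210 at 110235991 to 110236330 and 212.5 at 110233271 to 110233610. The nearest odd peak lay 10030, 11390 and 14110 bases from them. The 5 even peaks were spread over 20910 bases, and their near ends lay 42434 to 63004 bases from the 5′ end of the span. Genes with 5 or more even peaks numbered 8, which is 2.59% of the 309 protein-coding genes with an even peak, and 3 of these, RDX included, also had an odd peak while lacking one from LacZ.

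Ezrin RNA was captured at a single place, and by every probe set. EZR (gene ID 7430) lies on the minus strand of chromosome 6, 158765748 to 158819368. Its only peak in each list was the bin at 158769801 to 158769970, 4053 bases from the 3′ end of the span. That bin held 376 even, 326 odd and 131 LacZ reads. Regions found in all 3 lists made up 2.52% of the regions. In contrast to RDX, the control probes thus listed exactly the place that the ZNF609 probes listed.

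Moesin RNA had listed peaks with odd and LacZ probes at different places near the 3′ end of the gene. MSN (gene ID 4478) lies on the plus strand of chromosome X, 65588377 to 65741931. The odd peaks had 701 reads at 65735261 to 65735430, 273 reads at 65738491 to 65738660 and 355 reads per bin at 65738831 to 65739170. The first of these ranked 30 of 542 by reads per bin, the highest rank of any member in the odd list. By p-value the same peak ranked 306. The LacZ peak, with 101 reads at 65737131 to 65737300, lay between them, 1700 bases after the first odd peak and 1190 bases before the next. All 4 MSN peaks ended within 6501 bases of the 3′ end of the span. No even peak was listed in MSN. Reads too few to be listed could lie at these places in the other lists, with limits given below.

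In the lists as deposited, the ERM genes thus fell into 3 different classes. RDX had peaks with both ZNF609 sets alone, EZR with every set, and MSN with odd and LacZ probes. The classes of EZR and MSN changed with a stricter p-value limit and with lists trimmed by p-value, as given below. The RDX peaks lay between 35.0% and 51.9% of the way along the span, the EZR peak at 92.3% and the MSN peaks between 95.7% and 98.1%. Gene spans include introns and alternative ends, and exon positions were not used here, so these shares are not positions in the mRNA. Annotated pseudogenes carry the names of RDX (RDXP1, RDXP2 and RDXP3), EZR (EZRP1) and MSN (MSNP1), and each had 0 peaks in the 3 lists. The sources used here do not say how reads that match a gene and its copy were assigned, so the values of these 3 genes are uncertain to that extent.

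**Figure D2:**
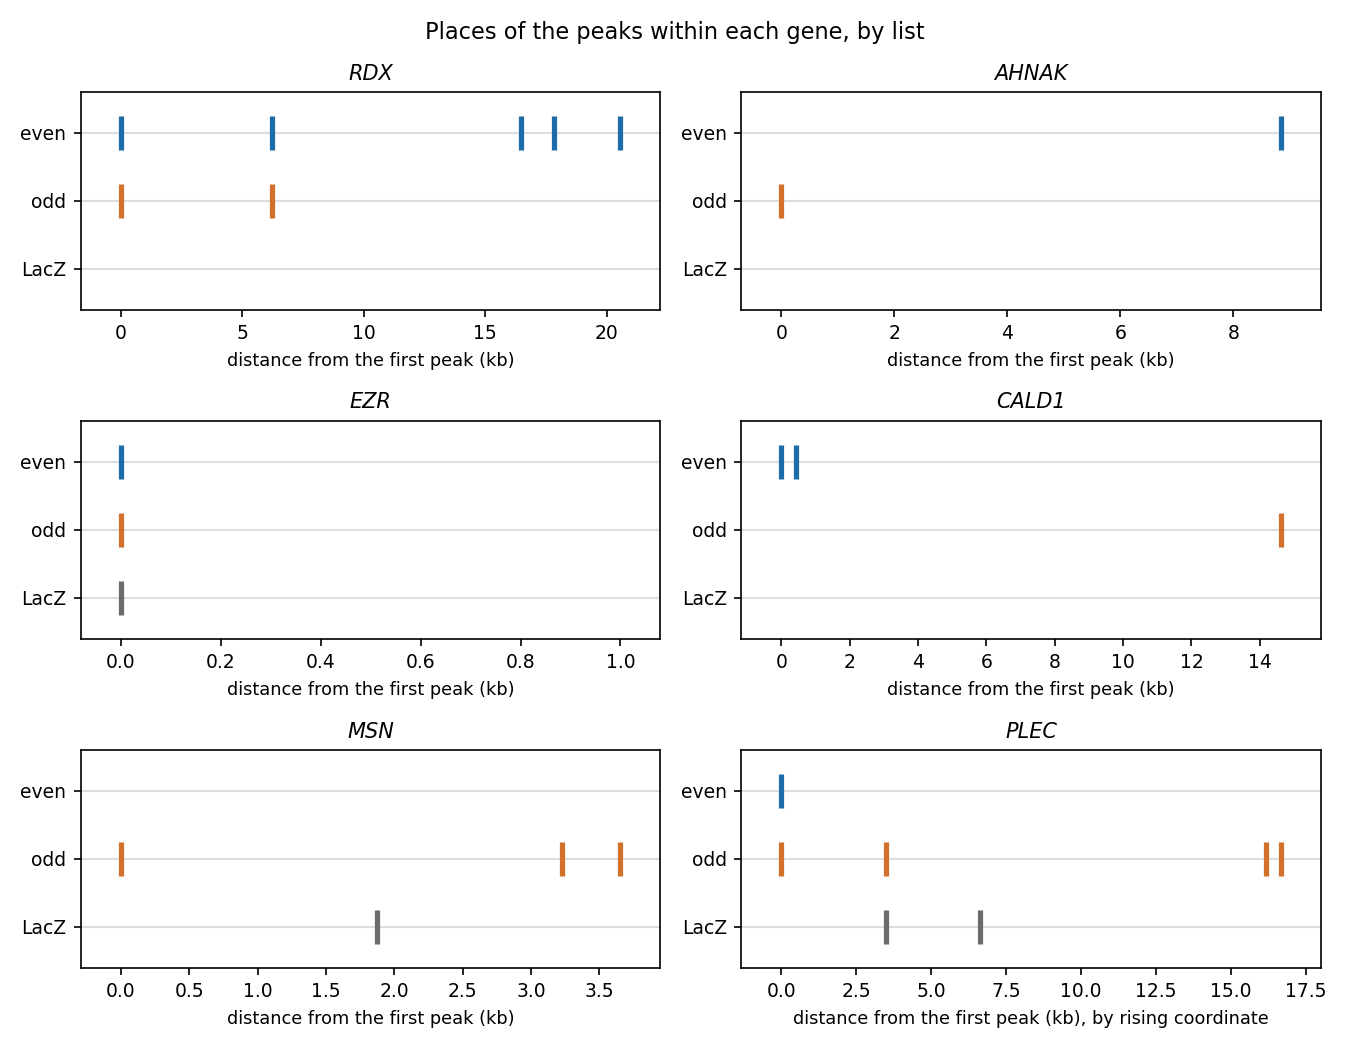
Centre of each peak in kb from the first peak of the gene, along the transcript for RDX, EZR, MSN, AHNAK and CALD1 and by rising coordinate for PLEC, with 1 row per list (even, odd, LacZ from top to bottom). Even and odd marks coincide at 2 places in RDX and at 1 place each in EZR and PLEC, and in AHNAK and CALD1 they lie 8500 and at least 13940 bases apart.

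AHNAK RNA was captured by both ZNF609 probe sets, at places 8500 bases apart. The gene (gene ID 79026) lies on the minus strand of chromosome 11, 62433544 to 62546806. The odd peak, at 62533821 to 62534160, had 416 reads per bin, and the even peak, at 62524981 to 62525320, had 320.5. They lay 12646 and 21486 bases from the 5′ end of the span. The odd peak ranked 99 of 542 and the even peak 225 of 502 in their lists. No LacZ peak was listed in AHNAK, and the nearest, with 52 reads, lay 24244 bases outside the span in EEF1G.

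CALD1 RNA gave the even peak with the most reads per bin among the members, which by p-value stood behind those of RDX and AHNAK, and its odd peak was weak and lay elsewhere. CALD1 (gene ID 800) lies on the plus strand of chromosome 7, 134711499 to 134970729. The even peaks had 403 reads at 134932911 to 134933080 and 857.5 reads per bin at 134933251 to 134933590, with 1 bin of 170 bases between them. The stronger one ranked 53 of 502 by reads per bin. The odd peak, at 134947531 to 134947700, had 126 reads and ranked 484.5 of 542. It lay 13940 bases downstream of the stronger even peak, so the even and odd sets did not list a common CALD1 place.

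Plectin RNA was captured by all 3 probe sets, with places shared in different pairings. PLEC (gene ID 5339) lies on chromosome 8, 143915153 to 143976745. At 143919111 to 143919280 the bin held 245 even and 227 odd reads, and LacZ had no peak there. At 143922511 to 143922850 there were 237 odd and 72 LacZ reads per bin, and no even peak. The odd set added 117 reads at 143935261 to 143935430 and 122 at 143935771 to 143935940. The LacZ set added 49 reads at 143925741 to 143925910. The region shared by even and odd lay 3230 bases from the nearest LacZ peak of the gene. Together with RDX, PLEC is 1 of the 2 members with a region shared by even and odd and not LacZ, a property of 4.84% of the 847 genes.

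The order of the members within a list depended on the deposited measure. By reads per bin, the best RDX peaks stood in the middle of their lists, at rank 204 of 502 even and 225.5 of 542 odd peaks. By the deposited p-value they stood near the top, at rank 58 with 2.91e-05 in the even list and rank 65 with 0.000200 in the odd list. EZR moved the other way. Its reads ranked 179.5 of 502 even, 155 of 542 odd and 298 of 722 LacZ peaks, and its p-values of 0.00756, 0.00798 and 0.00522 ranked 450, 481 and 539.

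**Figure D3:**
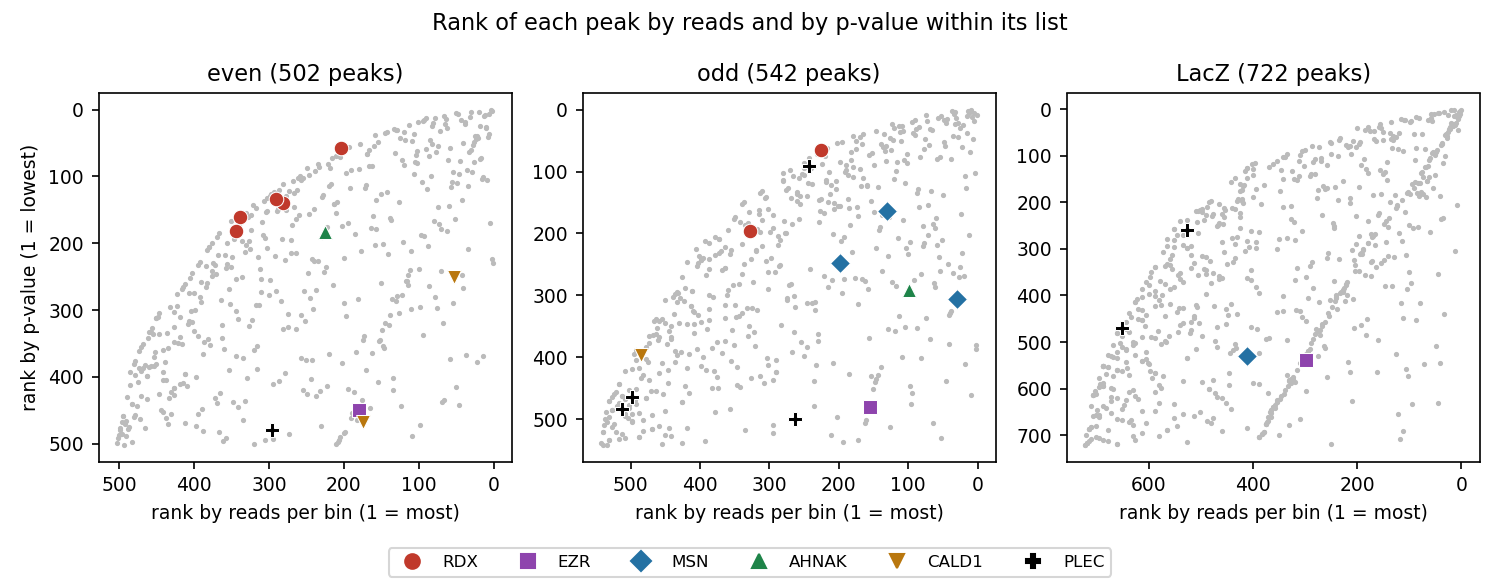
Rank of each peak by reads per bin (x axis) against rank by deposited p-value (y axis) within the even, odd and LacZ lists, with all peaks in grey and the members coloured. RDX lies along the upper left edge, with low p-values for its read number, and EZR lies far below that edge in all 3 lists.

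A score deposited for each bin moved with this, and the sources used here do not name what it measures. The score of the strongest RDX bin was 0.000226, the lowest value in any list, and the other RDX peaks had scores up to 0.000902. The EZR bin had 0.0101, the odd MSN bin with 701 reads 0.0151, and the even CALD1 peaks 0.0111 and 0.00925. The median score was 0.00282 for even, 0.00239 for odd and 0.00406 for LacZ peaks. The score's part in the p-values was not tested.

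The lowest read number at which peaks were listed was larger in bins of higher score. Each single-bin peak of a member was therefore also set against the weakest listed peak of like score (within 5 steps of 0.000226) in the same list. The strongest RDX bin had 344 even reads, 3.19 times the weakest of 99 single-bin even peaks of like score, which had 108. In the odd list its 254 reads were 2.42 times the weakest of 120 such peaks, which had 105. Other even bins of that score held more, among them bins with 691, 623, 615 and 614 reads. RDX peaks wider than 1 bin were not set against this edge. The weakest of 102 LacZ peaks in bins of that score had 38 reads, so a missing LacZ peak in RDX does not mean that the bin held no LacZ reads. The other single-bin peaks of the members lay closer to this edge. EZR was at 1.20 times the weakest like peak among even, 1.18 among odd and 1.30 among LacZ peaks. The shared PLEC bin was at 1.09 times in the even and 1.11 times in the odd list, and the MSN bin at 65738491 to 65738660 was highest among the rest, at 1.55 times in the odd list. For the strongest MSN bin, the weakest of 4 even peaks of like score had 565 reads, so even reads below that number could go unlisted there. The weakest of 8 LacZ peaks of like score had 222 reads. For the MSN bin with the LacZ peak, the weakest of 16 odd peaks of like score had 227 reads and the weakest of 20 even peaks 224. Separate odd and LacZ places in MSN thus do not mean that either bin lacked reads of the other set. For the shared PLEC bin the weakest of 31 like LacZ peaks had 72 reads. The CALD1 bin with 403 even reads was at 1.08 times the weakest like even peak. There the weakest of 7 odd peaks of like score had 326 reads and the weakest of 16 LacZ peaks 114. Odd or LacZ reads below those numbers could go unlisted in that CALD1 bin.

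**Figure D4:**
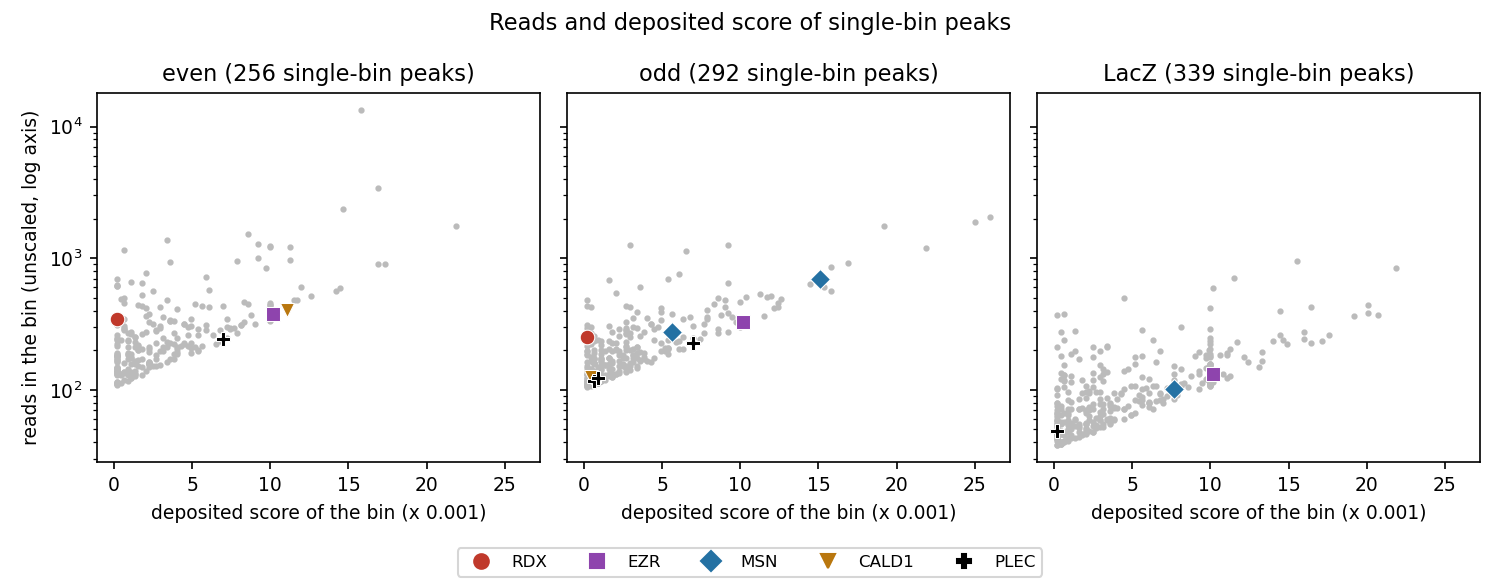
Reads in the bin (unscaled, log axis) against the deposited score of the bin for peaks 1 bin wide, by list, with all such peaks in grey and the members coloured. The lower edge of the listed peaks climbs with the score. The RDX peaks 1 bin wide stand clear above it at the lowest score, as do other peaks there, and EZR and PLEC lie near it.

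With the p-value limit set at 0.001 in place of the deposited 0.01, RDX alone kept even peaks among the members, RDX and PLEC kept odd peaks and PLEC kept a LacZ peak, and the strongest RDX bin was the 1 remaining region shared by even and odd. The deposited p-values of the shared PLEC bin, 0.00893 even and 0.00848 odd, are the closest of the members to the deposited limit. With the 3 lists trimmed to 502 peaks by p-value, the LacZ peaks of EZR and MSN dropped out. EZR then joined RDX, AHNAK and CALD1 in the class of both ZNF609 sets without LacZ, and MSN was left with odd peaks. By reads per bin, the LacZ peaks of EZR and MSN ranked 298 and 411 of 722, and the better one of PLEC ranked 526. By that measure the first 502 LacZ peaks hold those of EZR and MSN and none of PLEC. The change in the classes of EZR and MSN thus depends on the trim by p-value, and a trim by reads per bin was not run.

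In the wider set of actin and membrane linker genes, more genes had a peak in the LacZ list, the longest of the 3, than in the even or the odd list. Of 63 further genes for ERM regulators and partners, FERM domain proteins, plakins and actin linkers, a list drawn up with earlier results of these data known, 13 had a peak, against 4.23% of all protein-coding genes. Even peaks lay in 5 of the 63 (7.94%), odd peaks in 5 (7.94%) and LacZ peaks in 9 (14.3%), where the shares over all protein-coding genes were 1.54%, 1.64% and 2.22%. All 3 shares of the list lay above those, the LacZ share included. Of the 13 genes with a peak, 1 (7.69%) had peaks from both ZNF609 sets with none from LacZ. That class holds 4.96% of the 847 genes, so a count of 1 is no result about the list. NF2, which encodes the ERM relative merlin, had 0 peaks. None of 11 genes for membrane partners and scaffolds of ERM proteins, among them CD44 and NHERF1, had a peak, and with 4.23% of all protein-coding genes listed a count of 0 in 11 is no result about them. STK10, which encodes an ERM kinase, had a LacZ peak of 40 reads.

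Among 13 genes for other FERM domain proteins, EPB41L2, MYO10 and TLN1 had peaks, where 4.23% of all protein-coding genes had one. EPB41L2 encodes a relative of the red cell protein that joins spectrin to actin. It was the 1 gene in the class of both ZNF609 sets without LacZ, which holds 4.96% of the 847 genes. Its bin at chromosome 6, 130955931 to 130956100, had 445 even and 291 odd reads, and a further odd peak of 815 reads per bin ranked 26 of 542. MYO10, a myosin of filopodia, had even, odd and LacZ peaks in the same bin, with 146, 123 and 38 reads. After 1 bin without a peak, from 16702841 on chromosome 5, MYO10 also had an even peak of 149 reads and an odd peak of 178.5 reads per bin that overlapped, with no LacZ peak there. TLN1, which encodes the integrin linker talin, had a LacZ peak of 69 reads and no other.

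Of the genes listed beside AHNAK, PLEC and CALD1 for their products' partners and relatives, 1 of 3, 1 of 5 and 2 of 8 had a peak. The share over all protein-coding genes was 4.23%, and these lists were drawn up with earlier results known. AHNAK2 had an even peak of 751 reads per bin and a LacZ peak of 46.5 at the same bases, chromosome 14, 104953411 to 104953750, and S100A10 and ANXA2 had no peak. MACF1, a plakin that joins actin and microtubules, had an even peak of 224 reads and LacZ peaks of 78 and 72 reads elsewhere. The tropomyosin genes TPM1 and TPM2, whose products bind actin together with caldesmon, had LacZ peaks and no peak with ZNF609 probes. The strongest of these was in TPM2, with 287 reads and rank 76 of 722. Of 13 actin crosslinker and membrane skeleton genes, VCL had an even peak, ACTN4, SPTAN1 and SPTBN1 had odd peaks, and ACTN1 and SPTBN1 had LacZ peaks. Over all protein-coding genes, 1.54% had an even, 1.64% an odd and 2.22% a LacZ peak. None of these 13 had both an even and an odd peak. Among the 847 genes with a peak, 4.96% had both without LacZ and 5.31% had all 3, so this is no result about them.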

How the data were processed

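The members and gene lists were chosen with earlier results of these data known. The tools were STAR 2.5.2b, Trimmomatic, SAMtools, Picard, bedtools and bcl2fastq 2.0.2, on GRCh38, per the submitters' processing notes, with roles and settings not given in the sources. Peaks were deposited per library, in lists named for Piranha. The deposited lists have no header, so the meaning of each column was taken from its numbers. The authors' deposited signal is reads per bin of 170 bases, a mean over the bins of a peak, and 100% of peaks gave whole reads (tolerance 0.02). The deposited p-value is below 0.01 throughout, with any correction not stated. The deposited score is unnamed, and single bins hold whole steps of 0.000226 or a fixed 0.01, with peaks of several bins at values between steps. Depth beyond peaks is unknown. Gene spans came from RefSeq on GRCh38.p14, strands and starts from its promoter table, and the strand of PLEC was not used. Coordinates count from 1. Distances are bases between nearest ends. Peaks sharing at least 1 base were merged into regions. Ranks used reads per bin, ties at the mean. Overlaps were tested on simulated data. Python 3.11.15, pandas 2.3.3 and matplotlib 3.10.9 were used. The 6 members and the wider-list genes with a peak were named.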

Additional observations from a re-analysis of the deposited data

How the results depend on the processing

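No paired analysis was possible because each probe set has 1 library, and for the same reason none could be left out. With p-values below 0.001, 1 member kept an even, 2 an odd and 1 a LacZ peak, 1 member was in the class of both ZNF609 sets without LacZ, and 1 region was shared by those sets without LacZ. In lists trimmed to equal length by p-value, 1 member had a LacZ peak. The class of both ZNF609 sets without LacZ then had 4 members, against 3 as deposited. The counts held when over 50% of the peak had to lie inside the gene, when peaks over the fixed score were left out, with a reciprocal overlap of 50% and with peaks within 200 bases taken as shared. Nearest distances did not move wherever both peaks remained, in settings added after the data were seen.

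All 14 best ranks changed when p-values replaced reads per bin. They became 58, 450, 183, 251 and 479 of 502 for RDX, EZR, AHNAK, CALD1 and PLEC in the even list, 65, 481, 164, 291, 396 and 91 of 542 for RDX, EZR, MSN, AHNAK, CALD1 and PLEC in the odd list, and 539, 531 and 260 of 722 for EZR, MSN and PLEC in the LacZ list. With reads in the whole peak they were 200, 257.5, 167, 53 and 371 for RDX, EZR, AHNAK, CALD1 and PLEC in the even list, 228, 271, 104, 86, 496.5 and 179 for RDX, EZR, MSN, AHNAK, CALD1 and PLEC in the odd list, and 425.5, 507.5 and 395 for EZR, MSN and PLEC in the LacZ list. The cause of the changes was not tested. An unlisted bin may still hold reads, as the depth of the libraries is unknown.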
